A study of Mus musculus with 56 samples.

Results

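The miR-200 family, miR-205 and the paired repressors Zeb1 and Zeb2 were followed in mouse liver after genomic excision of miR-122, during normal development, and in livers with a knockout of miR-122 made by other routes. The members were 6 of the 479 microRNAs listed in the small RNA table, namely mmu-mir-200a, mmu-mir-200b, mmu-mir-429, mmu-mir-200c, mmu-mir-141 and mmu-mir-205, and 2 of the 21888 gene symbols listed in the RNA-seq table, namely Zeb1 and Zeb2. The microRNAs were chosen by their measured levels: miR-200a, miR-200b, miR-200c, miR-429 and miR-205 were selected on a higher RPM at 45 days after excision than in uninjected livers. The small RNA values of day 45 and day 0 are therefore given as a description, with no test, and miR-141, Zeb1 and Zeb2 were taken as the remaining members of the same circuit.

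The miR-200 family is known for its expression in epithelial cells, where its members, with miR-205, bind the 3′ ends of Zeb1 and Zeb2 transcripts and keep these repressors low. Zeb1 and Zeb2 are zinc finger proteins that silence E-cadherin and other epithelial genes and also the miR-200 genes themselves, so that each arm of the circuit holds the other down during transitions between the epithelial and the mesenchymal state. In adult liver the bile duct epithelium is the best known site of epithelial genes of this kind, while Zeb2 is known from stellate, endothelial and immune cells.

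The mature sequences are shown because the family falls into seed groups, and because near-identical members may share reads. The RefSeq mature sequences (table build GRCm38.p6) are written 5′ to 3′, with the seed, bases 2 to 8, in capitals.
mmu-miR-200a-3p: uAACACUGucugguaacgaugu
mmu-miR-141-3p: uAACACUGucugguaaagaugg
mmu-miR-200b-3p: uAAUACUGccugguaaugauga
mmu-miR-200c-3p: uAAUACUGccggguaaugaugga
mmu-miR-429-3p: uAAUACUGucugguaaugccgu
mmu-miR-205-5p: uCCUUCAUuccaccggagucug
Among 1679 mature names, the seed of miR-200a and miR-141 was held only by those 2 microRNAs, and the seed of miR-200b, miR-200c and miR-429 only by those 3. Counted from 1 at the 5′ end, the seed groups of the family differ by C4U. Across their aligned bases, miR-141 differs from miR-200a by A17C and G22U, and miR-200b differs from miR-200c by U11G and A22G. The authors' alignment allowed mismatches, so reads of these 2 pairs may have been exchanged, and the 2 arms of each hairpin are summed in the deposited table. The seed of miR-205 was held by no other name and shares neither of the family's seeds.

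The family is encoded in 2 clusters (mouse build NCBIM37, GENCODE M1 annotation). Mir429 (chr4:155428014-155428096), Mir200a (chr4:155429005-155429094) and Mir200b (chr4:155429790-155429859) lie within 1846 bases on the minus strand, overlapping the annotated genes Ttll10 and Gm13648. Mir141 (chr6:124667932-124668003) and Mir200c (chr6:124668340-124668408) lie within 477 bases on the minus strand, overlapping Gm15884. Mir205 (chr1:195333657-195333724) overlaps the non-coding gene 4631405K08Rik, and Zeb2 spans chr2:44839154-44972915 on the minus strand.

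Small RNA was sequenced from 42 livers and poly-A RNA from 14 livers, all of the 129Sv/J background, with 1 library per mouse in each assay. The floxed mice carry LoxP sites around miR-122. They were uninjected (day 0) or were harvested between 1 and 200 days after tail vein injection of rAAV8 carrying Cre under the Ef1a promoter, with 3 livers at days 0, 7, 14, 21 and 45 and 1 liver at days 1, 2, 3, 10, 17, 25, 36, 100 and 200. No group received a vector without Cre, so the vector and the excision cannot be told apart. The developmental series is of wild-type livers from embryonic day 14 (E14) to postnatal day 270 (P270), with 2 livers at E14, E18, P1, P8 and P270 and 1 at P12, P17, P21 and P28. LKO_flox names a liver-specific knockout in which Cre is driven by the Albumin promoter, and LKO_floxCre the same knockout given rAAV-Cre, with 2 livers each. RNA-seq covered floxed livers at days 0, 21 and 45 (3 each), at days 100 and 200 (1 each) and 3 germline miR-122 knockout livers (122ko). The series describes the floxed RNA-seq livers as livers that also gave small RNA, so the assays are not independent mice. Small RNA of the 122ko livers was not analysed here. The floxed mice were adult when injected. Their exact ages, the ages of the knockout mice and the sexes are not given in the sources used here.

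MicroRNA levels are in RPM, here scaled to all listed microRNA reads other than miR-122, since miR-122 alone took 59.2 to 73.3% of the reads at day 0 and 0.383 to 1.23% at day 45. It took 4.46% at day 100 and 19.1% at day 200. Apart from miR-122, each floxed liver had 79359 to 795523 listed reads, but there were only 33960 in E14 replicate A, 21824 in P270 replicate A, 25031 at P21 and 34265 at P28. The listed RPM fall short of the full total by 32.3% in E14 replicate A, by 33.9% at P28 and by 48.3% in P270 replicate A, and what the remainder holds is not given in the sources used here. If it were microRNA reads other than miR-122, the levels printed for these 3 livers would be too high by 1.48, 4.02 and 5.32 times, and results that rest on them are given on both scales where a call changes. A count of 0 therefore allows up to 11.9 to 13.9 RPM at day 0 (3 reads) and up to 137 RPM in P270 replicate A. Intervals and limits of this kind cover counting error only. In RNA-seq, 122ko replicates A and B stood apart from replicate C, and counts and calls on the knockout are given with and without replicate C where they differ. These are bulk livers, so fewer cells of a type and less RNA per cell cannot be told apart.

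At day 45 after excision the family stood higher in every liver than in any uninjected liver. For miR-200a the 3 uninjected livers had 393.9, 522.7 and 141.3 RPM, and the 3 livers of day 45 had 1915, 2479.7 and 1577 RPM. The values of miR-200b were 542, 523 and 129 RPM at day 0 and 1688, 2599 and 2652 RPM at day 45. These are the 2 abundant members of the family in adult liver, and their means at day 45 stood 5.65 and 5.81 times those of day 0. Their cluster partner miR-429 had 46.4, 95.03 and 20.1 RPM at day 0 and 227, 279.6 and 243 RPM at day 45. From the other cluster, miR-200c had 60.3, 63.4 and 20.1 RPM at day 0 and 227, 368 and 220.1 RPM at day 45, and miR-141 had 23.2, 31.6 and 0 RPM at day 0 and 50.4, 82.8 and 36.0 RPM at day 45. The ratio of means was 4.64 for miR-429, 5.66 for miR-200c and 3.09 for miR-141, the lowest of the 5.

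miR-205 was close to the detection limit in these livers. It had 0, 3.92 and 3.90 RPM at day 0 and 75.6, 10.3 and 13.3 RPM at day 45, where the value of replicate A rests on 6 reads. The ratio of means was 12.7, and 4.53 without day 45 replicate A. Over the 3 livers of each group this is 2 reads against 15. All 6 of the 6 microRNAs were above day 0 in every day 45 liver, as were 67 of all 253 microRNAs compared (26.5%), and 5 of the 6 were chosen for it. When miR-122 was kept in the total, the ratios were 16.2 for miR-200a, 17.2 for miR-200b, 12.8 for miR-429, 16.6 for miR-200c, 8.80 for miR-141 and 33.9 for miR-205, since the loss of miR-122 raises the share of every other microRNA. On either scale the 2 groups of livers did not overlap for any of the 6.

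**Figure D1:**
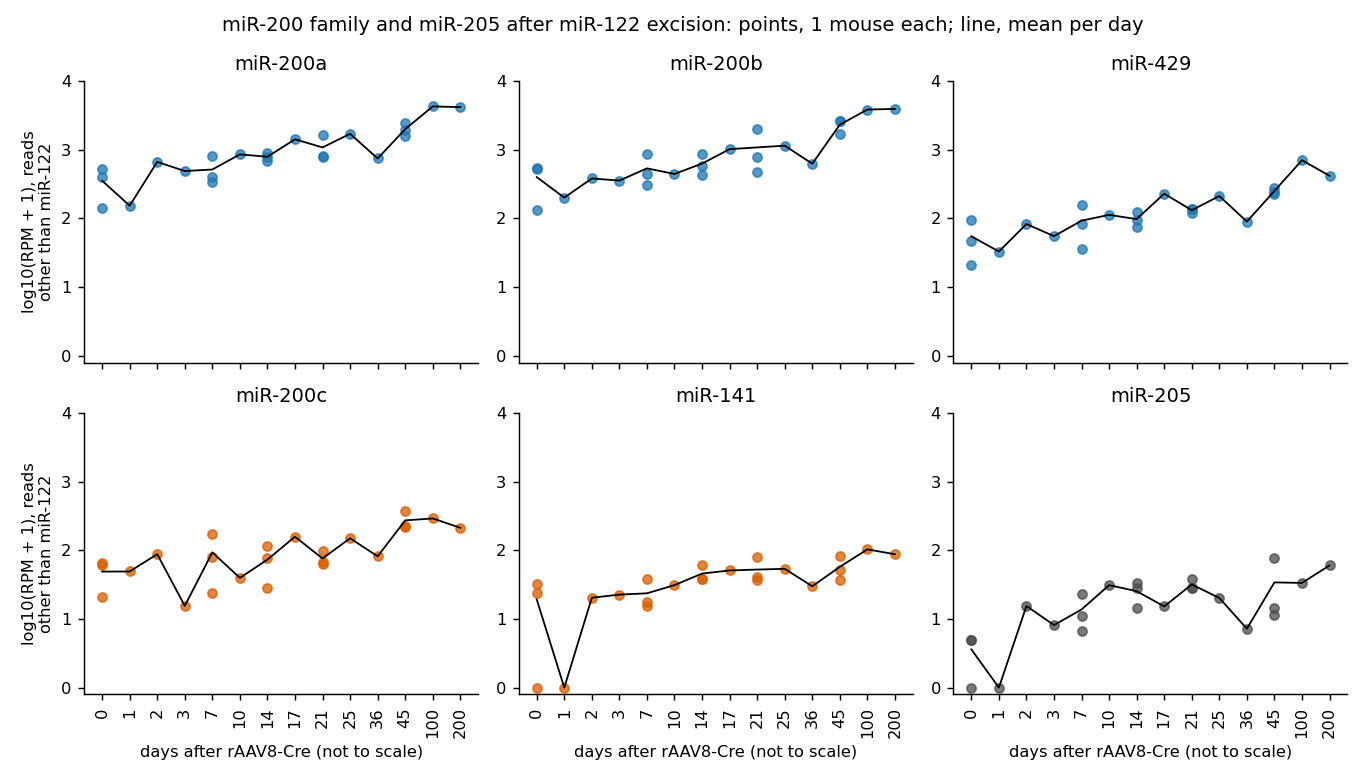
log10(RPM + 1) of each of the 6 microRNAs, scaled to reads other than miR-122, against days after rAAV8-Cre (days in order, not to scale), with 1 point per floxed liver and a line through the mean of each day. The livers of days 100 and 200 stand highest for miR-200a and miR-200b, and every liver of day 45 lies above every liver of day 0 in all 6 panels.

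Over the first 36 days the levels varied from liver to liver, and no member passed the test of a trend. miR-200a was at 152 RPM on day 1, 664 RPM on day 2, 488 RPM on day 3, 404, 800.3 and 337 RPM on day 7, 854 RPM on day 10, 792, 896 and 677 RPM on day 14, 1417 RPM on day 17, 773, 820.3 and 1643 RPM on day 21, 1704 RPM on day 25 and 744 RPM on day 36. The single liver of day 36 was lower than the livers of days 17 and 25 for each of miR-200a, miR-200b, miR-429, miR-200c and miR-141. A line was fitted with limma through the 16 livers of days 1 to 36, which the choice of the members did not use. Its slope on the log2 scale per 10 days was 0.56 (SE 0.19, adjusted p = 0.062) for miR-200a, 0.52 (SE 0.18, adjusted p = 0.076) for miR-200b and 0.81 (SE 0.31, adjusted p = 0.11) for miR-141. None of the 6 members passed the threshold of 0.05 on the Benjamini-Hochberg adjusted p, against 28 of 239 microRNAs (11.7%), of which 22 had a positive slope (9.21%). Unadjusted p-values under 0.05 were held by 4 of the 6 members and by 61 of the 239. All 6 slopes were positive, beside a median slope of 0.05 over all microRNAs tested. Without the liver of day 36, 4 members passed, with miR-200a at 0.90 per 10 days (adjusted p = 0.012). The share of all microRNAs called without that liver is not given here. With miR-122 kept in the total 5 passed, together with 113 of 229 microRNAs.

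Day 21 did not differ from day 7 by the test. Family members summed to 1196, 1853 and 715 RPM at day 7 and to 1487, 3018 and 2738 RPM at day 21, so that the 2 groups overlapped. The largest statistic was that of miR-200a, with a log2 difference of 1.08 (SE 0.52, unadjusted p = 0.052, adjusted p = 0.57). None of the 6 passed, beside 2 of 259 microRNAs (0.772%), and 22 of the 259 had an unadjusted p under 0.05.

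The single livers of day 100 and day 200 had the highest adult levels of the 2 abundant members in the floxed series. miR-200a stood at 4270.0 and 4169.7 RPM and miR-200b at 3841 and 3925 RPM, above each of the 3 livers of day 21 (773, 820.3 and 1643 RPM for miR-200a, and 475, 1976 and 786 RPM for miR-200b). miR-429 had 702 and 416 RPM, against 137, 119 and 136 RPM at day 21. All 3 members of the chromosome 4 cluster rose against day 21, by a log2 difference of 2.06 for miR-200a (SE 0.59, limma adjusted p = 0.015), 2.10 for miR-200b (SE 0.68, adjusted p = 0.034) and 2.05 for miR-429 (SE 0.69, adjusted p = 0.041). Neither member of the chromosome 6 cluster passed. miR-200c had 289.7 and 211 RPM against 66.2, 62.9 and 95.6 RPM (log2 difference 1.74, SE 0.79, adjusted p = 0.17), and miR-141 had 102 and 86.5 RPM against 36.5, 39.6 and 77.9 RPM (0.94, SE 1.06, adjusted p = 0.66). For miR-205 the values were 32.4 and 59.2 RPM against 27.3, 37.3 and 27.7 RPM, and only here did the groups overlap.

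The 3 calls compare with 46 of 259 microRNAs called higher (17.8%) and a median difference of 0.25 over all tested. Of all 262 microRNAs compared, 85 (32.4%) were above day 21 in both late livers, as were 5 of the 6 members. The calls rest on few livers. Leaving out any 1 of the 5 left 0 or 1 of the 3 calls, namely none without day 21 replicate A, day 100 or day 200, miR-200b alone without day 21 replicate B (adjusted p = 0.013) and miR-200a alone without day 21 replicate C (adjusted p = 0.0096). With each library centred on its median, miR-200a alone passed. The liver of day 200 had regained miR-122 to 19.1% of its reads, and its miR-200a and miR-200b levels were close to those of day 100.

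In normal development the summed family was at its highest in the 2 livers of E14 and at its lowest at P270, although some livers between E18 and P28 were below P270 replicate A for miR-200c or had no reads of miR-141. miR-200b had 26502 and 13579 RPM at E14, 1613 and 2213 RPM at E18 and 183 and 74.0 RPM at P270. miR-200a had 11808 and 7691 RPM at E14, 2496 and 2484 RPM at E18 and 412 and 132 RPM at P270. Between E14 and E18 miR-200c had the largest estimated difference of the 6, with 25972 and 4839.5 RPM at E14, 79.6 and 177 RPM at E18 and 91.3 and 23.4 RPM at P270. In E14 replicate A miR-200c thus stood level with miR-200b, whereas at E18 it stood far below miR-200b in both livers. Its cluster partner miR-141 went from 1885 and 831 RPM at E14 to 26.5 and 32.4 RPM at E18, and to 0 and 3.79 RPM at P270. miR-429 had 4299 and 1289.9 RPM at E14, 839 and 787 RPM at E18 and 45.6 and 15.5 RPM at P270.

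From E14 to P270 all 6 members fell in the limma fit over 18 developmental and LKO livers. The log2 difference was -5.34 for miR-200a (SE 0.90, adjusted p = 0.00026), -7.33 for miR-200b (SE 0.91, adjusted p = 2.2e-05), -6.41 for miR-429 (SE 1.07, adjusted p = 0.00026) and -7.88 for miR-200c (SE 1.21, adjusted p = 0.00014). For miR-141 it was -9.16 (SE 1.98, adjusted p = 0.0018) and for miR-205 -9.30 (SE 2.28, adjusted p = 0.0045). At the few P270 reads given below, the size of both differences depends on the 1 RPM added before the logarithm. Falling was common in this comparison, with 131 of 316 microRNAs called lower (41.5%) and a median difference of -2.65 over all tested, so the members are to be read against that shift. Centring each library on its median moved the split of all calls to 62 higher and 59 lower, and all 6 members still passed as lower, as they did with the unlisted part of the libraries in the total. Both E14 livers were above both P270 livers for the 6 members and for 54.7% of all microRNAs compared. Reads were few at P270, where replicate A was shallow. The reads summed over both P270 livers were 43 for miR-200a, 23 for miR-200b, 5 for miR-429, 8 for miR-200c and 1 for miR-141, and none were found for miR-205, which was at least 71.5-fold lower than at E14 when set at a limit of 3 reads over the group.

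Part of this difference already lay between E14 and E18. Both E14 livers stood above both E18 livers for each of the 6 members, as they did for 66 of 336 microRNAs compared (19.6%). Of the 6, miR-200c fell by 6.55 on the log2 scale (SE 1.21, adjusted p = 0.0030) and miR-200b fell by 3.33 (SE 0.91, adjusted p = 0.040), among 10 of 316 microRNAs called lower (3.16%) and beside a median of 0.72 over all tested. The estimates that did not pass were -1.94 for miR-200a (adjusted p = 0.26), -1.53 for miR-429 (adjusted p = 0.44), -5.37 for miR-141 (adjusted p = 0.16) and -3.81 for miR-205 (adjusted p = 0.39). The number of the 6 called was 4 with the replicate letter as a block, 3 with a pseudocount of 10 RPM or with median centring, and 1, miR-200c, with the unlisted part of E14 replicate A in the total (miR-200b adjusted p = 0.18). The shares of all microRNAs called under these settings are not given here, so these counts have no matching background. Leaving out 1 of the 4 livers left 0 or 1 call: none without E14 replicate A or E18 replicate A, and miR-200c alone without the other replicate of either stage (adjusted p = 0.0065 without E14 replicate B and 0.020 without E18 replicate B).

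Markers of tissues next to the fetal liver were measured beside this result. Of the pancreas microRNAs, miR-216a, miR-216b and miR-217 were at 0 in both E14 livers, and miR-375 alone gave the sum of 177 RPM in E14 replicate A and 1912 RPM in E14 replicate B. The 4 summed to 236 and 549 RPM at E18, where none was at 0, and to 0 at P270. The muscle microRNAs (miR-1, miR-133a, miR-206) summed to 471 to 479 RPM at E14 and 634 to 2358 RPM at E18, and miR-203, known from keratinocytes, to 45.4 to 412 RPM at E14. Blood cell microRNAs (miR-451, miR-144, miR-486, miR-223, miR-142) took 9455 to 55801 RPM at E14 and 114362 to 203663 RPM at E18. Their part in the family's levels was not tested.

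Between birth and weaning the levels did not follow a straight line down. miR-200a lay between 1234 and 3106 RPM in most livers from P1 to P17, with 735 RPM in P8 replicate B, then at 599.5 RPM at P21 and 2802 RPM at P28 (697 RPM with the unlisted part of that library in the total). miR-200b ranged from 1002 to 3893 RPM from P1 to P28, where the 2043 RPM of P28 would be 508 RPM with the unlisted part in the total. miR-200c stayed at 54.9 to 179.6 RPM from P1 to P21 and had 525 RPM at P28 (131 RPM with the unlisted part in the total). With 1 or 2 livers per stage, the order of these stages cannot be set beyond the spread between livers.

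miR-205 had a course of its own in development. It was at 501 and 794 RPM at E14, 22.1 and 86.6 RPM at E18, 63.5 and 81.9 RPM at P1 and 123 and 98.0 RPM at P8. In the single livers of P12 and P17 it was at 1074 and 446 RPM, at or above the range of E14 in the former. It then had 0 RPM at P21, where 3 reads would have given 119.9 RPM, 29.4 RPM at P28 and 0 RPM in both P270 livers. Each of P12 and P17 is 1 mouse, so these 2 high values have no replicate.

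**Figure D2:**
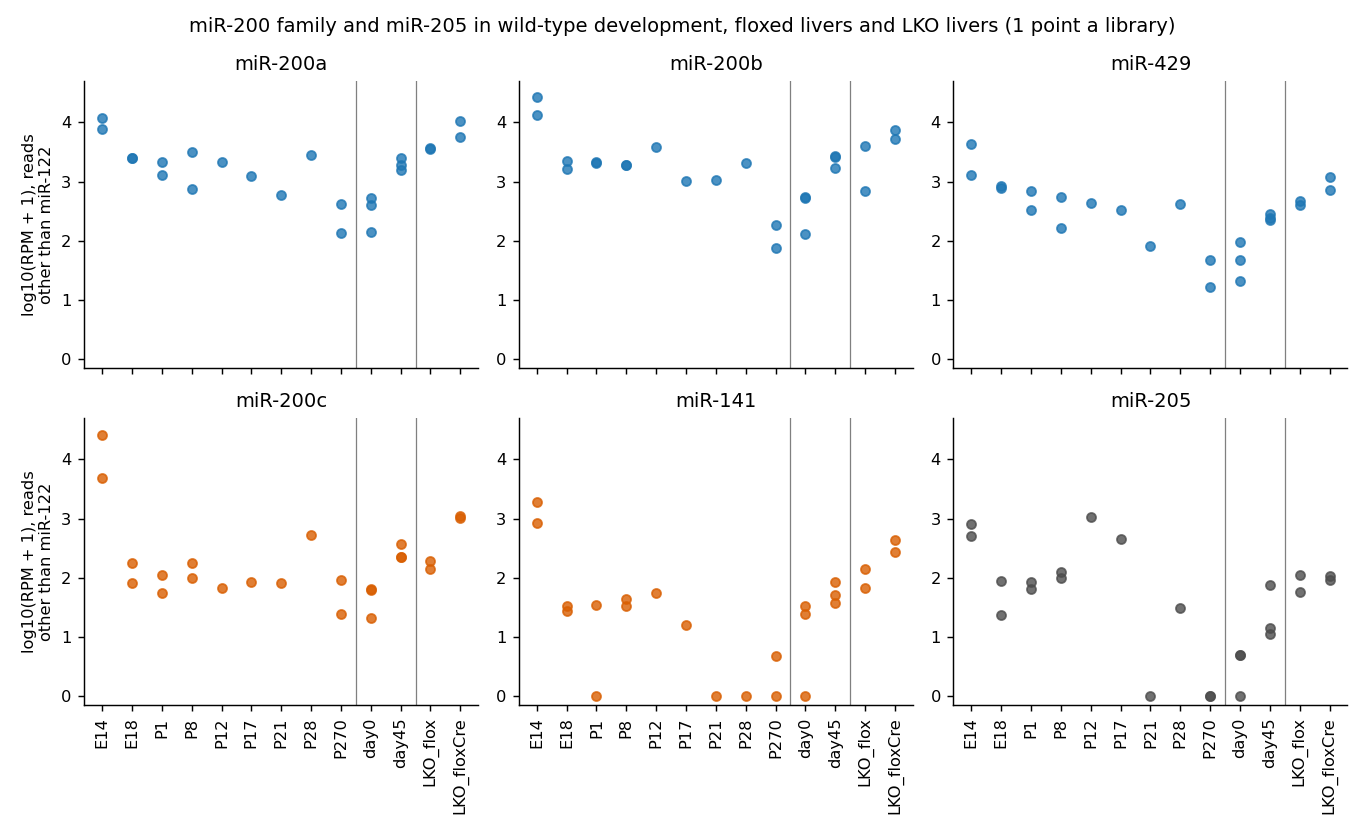
log10(RPM + 1) of the 6 microRNAs in the wild-type stages E14 to P270, the floxed livers of days 0 and 45 and the LKO livers, with 1 point per library and vertical lines between the 3 sets. Among wild-type stages the 2 E14 livers stand highest for the 5 miR-200 members, and the 4 LKO livers stand above both P270 livers for all 6 microRNAs.

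The LKO livers are a second set with little miR-122, which took 9.38 and 3.09% of the reads in LKO_flox and 0.837 and 1.11% in LKO_floxCre. miR-200a had 3674 and 3518 RPM in LKO_flox and 10389 and 5665 RPM in LKO_floxCre. miR-200b had 3999 and 687 RPM in LKO_flox and 5155 and 7525 RPM in LKO_floxCre. For miR-429 the values were 474 and 399 RPM and then 1205 and 710.0 RPM. The chromosome 6 cluster showed the same order, with miR-200c at 189 and 137 RPM and then 1100.0 and 1021 RPM, and miR-141 at 137 and 66.8 RPM and then 435 and 274 RPM. miR-205 had 109 and 57.0 RPM in LKO_flox and 108 and 88.8 RPM in LKO_floxCre, which overlap. LKO_floxCre replicate A, at 10389 RPM, stood above E14 replicate B for miR-200a. Both LKO_floxCre livers stood above both LKO_flox livers for the other 5 members, as they did for 52 of 259 microRNAs compared (20.1%).

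No microRNA passed limma's test of LKO_floxCre against LKO_flox, and 4 of the 316 had an unadjusted p under 0.05. One of these was miR-200c, with a log2 difference of 2.71 (SE 1.21, unadjusted p = 0.041, adjusted p = 1). The estimate for miR-200b was 1.91 (SE 0.91, unadjusted p = 0.052, adjusted p = 1). The lack of calls does not show that the groups were alike. All 4 LKO livers stood above all 3 uninjected floxed livers for each of the 6 members, as they did for 72 of 256 microRNAs (28.1%). This is given as values side by side, since the uninjected livers helped to choose the members.

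**Figure D3:**
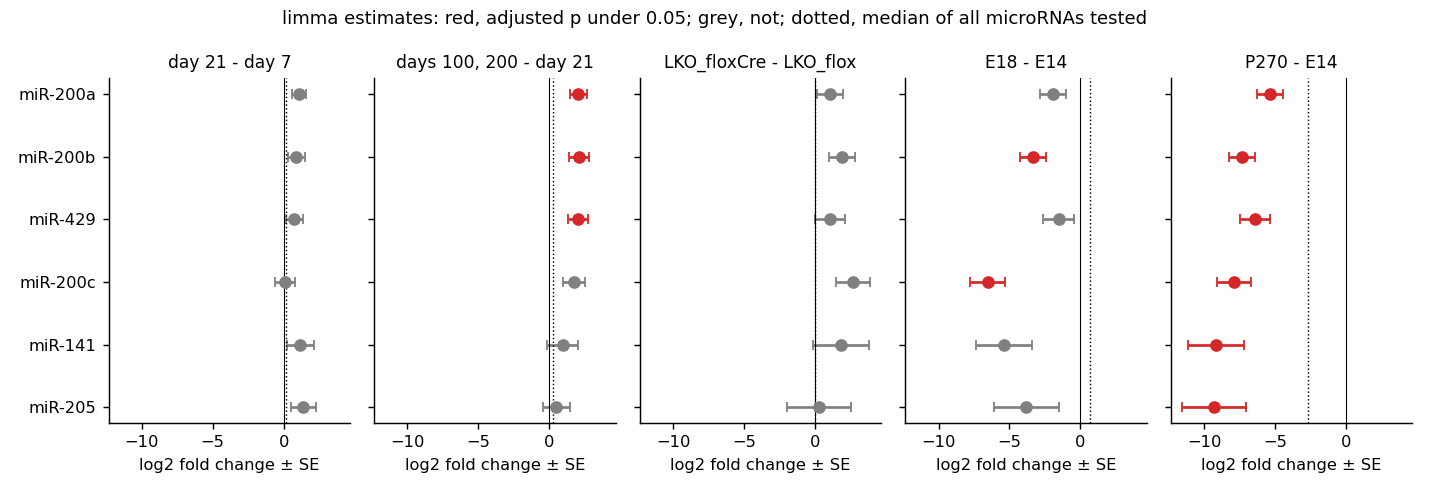
Log2 fold changes from limma with standard errors for the 6 microRNAs in 5 comparisons, in red where the adjusted p was under 0.05 and in grey where it was not, with a dotted line at the median of all microRNAs tested. The P270 against E14 estimates lie between -5.34 and -9.30, all below the dotted line at -2.65, and the late floxed livers lie to the right of day 21 for all 6 microRNAs.

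The make-up of the family differed between stages. The chromosome 6 cluster (miR-200c and miR-141) gave 20.1 to 39.5% of the family's reads at E14, 1.79 to 12.5% from E18 to P270, 3.84 to 8.52% in the LKO livers and 3.38 to 15.96% in the floxed livers. The E14 range did not overlap any of the others. With miR-122 left out of the total, the family as a whole took 2.82 to 7.05% of reads at E14, 0.0249 to 0.658% from E18 to P270, 0.481 to 1.83% in the LKO livers and 0.0311 to 0.921% in the floxed livers. In the LKO livers the family thus took a share below that of E14, and most of it came from the chromosome 4 cluster. These shares carry the read exchange between near-identical members named above.

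**Figure D4:**
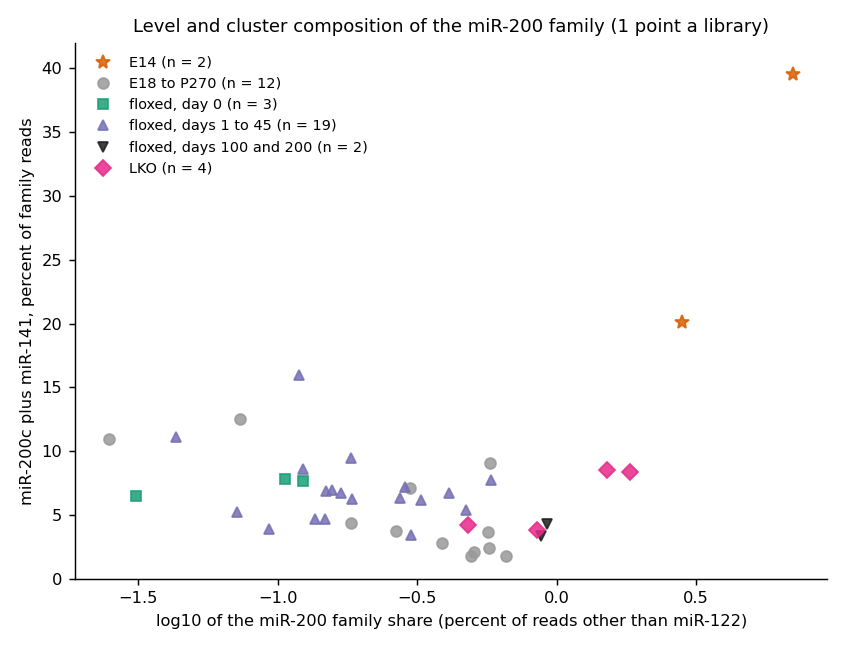
Share of the family's reads that came from miR-200c and miR-141, in percent, against the log10 of the family's share of reads other than miR-122, in percent, with 1 point per library. The 2 E14 livers stand apart at 20.1 and 39.5% on the vertical axis, and the LKO livers lie to their left at 3.84 to 8.52%.

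Over the 42 libraries the 5 family members moved together, with pairwise Pearson correlations of 0.60 to 0.94 on the log2(RPM + 1) scale. miR-205 correlated with the single members at 0.54 to 0.79 and with the family mean at 0.76. Of 294 other microRNAs, those most like the family mean were mir-199b (0.84), mir-218-2 (0.78), mir-218-1 (0.78), mir-199a-2 (0.75) and mir-199a-1 (0.75). These correlations are descriptions. The names are of hairpins, and hairpins with like sequences may share reads, so they need not be separate observations. At E14 mir-218-1 and mir-218-2 had means of 1985 and 1909 RPM, and mir-199a-1 and mir-199a-2 had 4358 and 4698 RPM. The libraries share their scaling and their groups, and the E14 livers lie far from the rest on most of these microRNAs.

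Zeb1 and Zeb2, the repressors that the family is known to silence, were measured by RNA-seq in FPKM, fragments scaled to transcript length and library size. Neither gene fell in the livers in which the family was higher. Zeb1 had 2.997, 4.242 and 5.53 FPKM at day 0, 5.44, 4.608 and 3.513 FPKM at day 21 and 4.41, 5.533 and 4.642 FPKM at day 45. The single livers of days 100 and 200 had 6.398 and 4.426 FPKM. The liver of day 100 stood above the range of the uninjected livers, day 45 replicate B lay level with its upper end, and the others lay within it. Zeb2 had 1.125, 1.774 and 2.807 FPKM at day 0, 3.753, 3.509 and 3.037 FPKM at day 21, 4.231, 5.555 and 3.22 FPKM at day 45 and 4.761 and 2.949 FPKM at days 100 and 200. Every liver after excision was thus above every uninjected liver for Zeb2. At day 21 alone 27.6% of 14104 genes stood above day 0 in this way, and at day 45 alone 44.8%. The share over all livers after excision was not computed.

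Neither gene passed the test against day 0 after excision. At day 45 the log2(FPKM + 1) difference was 0.90 for Zeb2 (SE 0.35, unadjusted p = 0.025, adjusted p = 0.074) and 0.18 for Zeb1 (adjusted p = 0.65), beside 4200 of 14104 genes called (29.8%) and a median of 0.21 over all genes tested. At day 21 it was 0.65 for Zeb2 (SE 0.35, adjusted p = 0.33) and 0.08 for Zeb1 (SE 0.25, adjusted p = 0.91), with 6.93% of genes called (5.74% higher and 1.19% lower). In the livers of days 100 and 200 it was 0.76 for Zeb2 (SE 0.39, adjusted p = 0.15) and 0.30 for Zeb1 (SE 0.28, adjusted p = 0.44), with 37.7% called (34.7% higher). The sign for Zeb1 was not settled: with each library centred on its median it was -0.065 at day 45 and -0.060 in the late livers, while without uninjected replicate A it was -0.10 at day 21.

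In the germline knockout the livers were split. The hairpin of miR-122 is listed at 0 in every RNA-seq library, so its loss in these 3 livers could not be checked here. Zeb1 had 1.726, 2.165 and 3.95 FPKM and Zeb2 0.38, 0.48 and 2.851 FPKM in 122ko replicates A, B and C. Replicate C lay in or just above the range of the uninjected livers for both genes, and replicates A and B lay below it. Over the 3 livers neither gene passed, with a log2 difference from day 0 of -0.56 for Zeb1 (SE 0.25, unadjusted p = 0.044, adjusted p = 0.10) and -0.50 for Zeb2 (SE 0.35, adjusted p = 0.28), beside 31.5% of genes called (19.6% higher and 12% lower). Without replicate C both passed as lower, at -0.81 for Zeb1 (adjusted p = 0.0086) and -0.98 for Zeb2 (adjusted p = 0.0057), and the number of genes called went from 4448 of 14104 to 8149 of 14122. Set against day 45 in the same fit, Zeb2 was lower in the knockout by a log2 difference of -1.40 (SE 0.35, adjusted p = 0.032), among 1251 genes called lower (8.87%), and Zeb1 had -0.74 (SE 0.25, adjusted p = 0.066). Without 122ko replicate C both passed, at -1.88 for Zeb2 (adjusted p = 0.00015) and -0.99 for Zeb1 (adjusted p = 0.0038), when 33.7% of all genes were called lower. Leaving out any 1 of the other 5 livers ended the call of Zeb2 (adjusted p up to 0.13). In this comparison 4 of 5 endothelial, 2 of 6 stellate and 2 of 5 macrophage markers were also called lower, with medians of -1.06, -0.44 and -0.70 beside -0.19 over all genes, and their part in the difference was not tested.

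**Figure D5:**
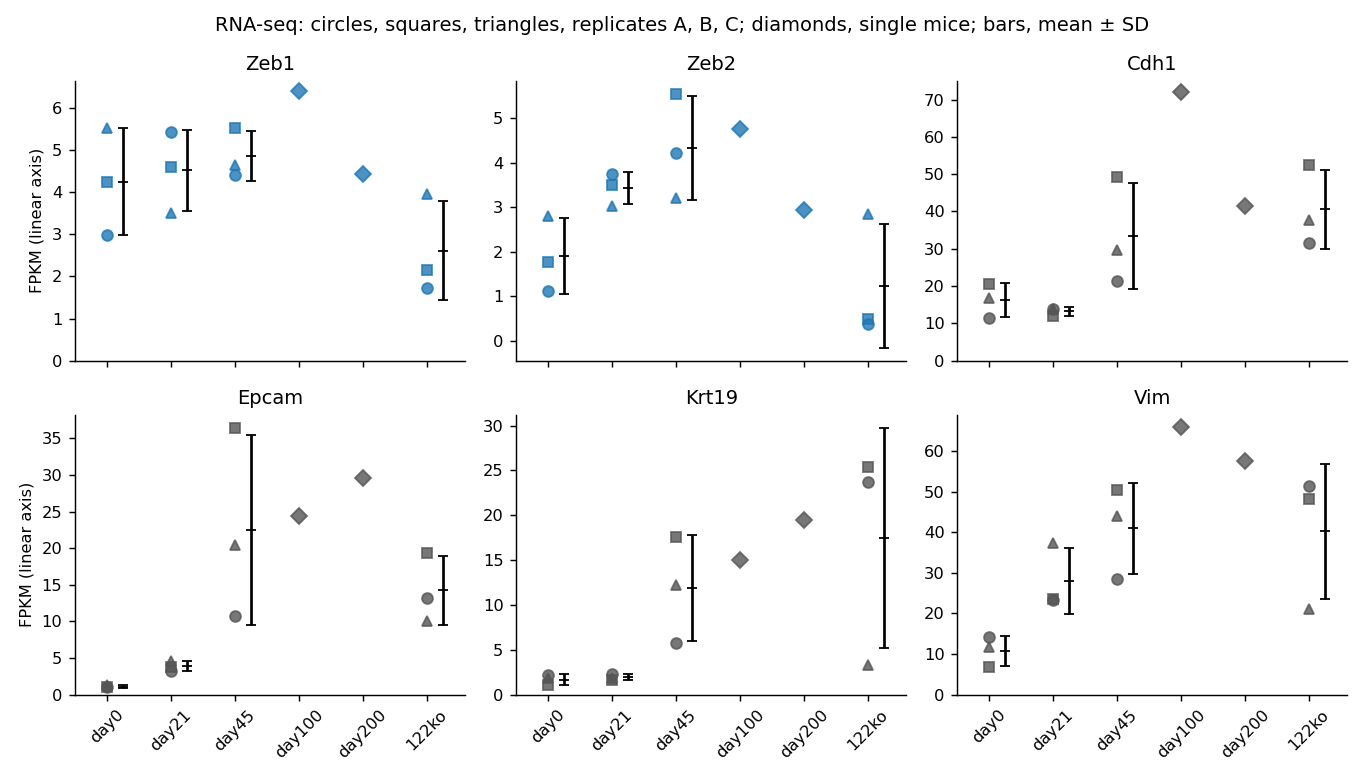
FPKM on linear axes of Zeb1, Zeb2, Cdh1, Epcam, Krt19 and Vim in each RNA-seq library by group, with circles, squares and triangles for replicates A, B and C, diamonds for single mice and bars for the mean ± SD of 3 livers. Zeb2 stands at 2.949 FPKM or more in all 8 livers after Cre excision and at 2.807 FPKM or less in the uninjected livers, and 122ko replicates A and B stand below replicate C for Zeb1 and Zeb2.

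Zeb1 and Zeb2 correlated with each other at 0.91 over the 14 RNA-seq libraries, which placed Zeb2 at rank 239 of the 11353 genes compared with Zeb1. The 5 genes most like Zeb1 were Poc5 (0.99), Itga1 (0.97), Chd8 (0.97), Cnot1 (0.97) and 1110037F02Rik (0.97). Those most like Zeb2 were Srpk2, Snx9, Eltd1 and Ints2 (0.98 each) and Rasgrp3 (0.97). Without 122ko replicates A and B, which are low for both genes, Zeb1 and Zeb2 correlated at 0.74 over 12 libraries, Poc5 with Zeb1 at 0.95 and Srpk2 with Zeb2 at 0.96. These are descriptions.

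Epithelial genes of the Zeb and miR-200 circuit were mostly called higher at day 45 and in the late livers. The list holds genes that the Zeb proteins are known to repress, such as Cdh1, together with keratins and regulators of epithelial identity such as Grhl2 and Ovol2. Of 22 measured genes of this list, 17 rose at day 45 and none fell, and the median log2 difference was 1.36, beside 0.21 over all genes and 26.9% of all genes called higher. Epcam, an epithelial adhesion molecule, had 0.963, 1.043 and 1.279 FPKM at day 0 and 10.7, 36.4 and 20.5 FPKM at day 45, a log2 difference of 3.34 (SE 0.34, adjusted p = 0.00017). The tight junction genes Cldn7 and Cldn4 rose by 2.57 (adjusted p = 0.0022) and 2.30 (adjusted p = 0.0042) on that scale, and Spint1, an inhibitor of epithelial serine proteases, rose by 2.37 (adjusted p = 0.0010). The keratin Krt19 rose by 2.17 (adjusted p = 0.014). Krt19, Krt7 and Epcam of this list are also on the list of bile duct markers described further on. Epcam was also higher at day 45 than at day 21, by a log2 difference of 2.13 (SE 0.34, adjusted p = 0.042), 1 of 17 genes called higher in that comparison (0.121%). It passed in only 1 of the 6 fits that left out 1 of those livers. That fit was the one without day 45 replicate A, when 2.97% of all genes were called higher.

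E-cadherin itself, the classic target of the Zeb proteins, changed less. Cdh1 had 11.4, 20.6 and 16.8 FPKM at day 0 and 21.4, 49.2 and 29.7 FPKM at day 45, all above the uninjected livers, with a log2 difference of 0.95 (SE 0.31, adjusted p = 0.037). It had 72.0 and 41.6 FPKM at days 100 and 200 and 31.5, 52.3 and 37.8 FPKM in 122ko, where it also rose (1.73 and 1.27, adjusted p = 0.0023 and 0.011). The splicing regulators Esrp1 and Esrp2, which mark epithelial cells, parted: Esrp1 rose by 0.91 at day 45 (adjusted p = 0.0029) from at most 0.067 FPKM at day 0, whereas Esrp2 had 23.5 to 28.4 FPKM at day 0 and 22.1 to 24.3 FPKM at day 45 (-0.14, adjusted p = 0.64). At day 21 none of the 22 genes was called higher and 1, Tjp3, was called lower (-1.23, adjusted p = 0.019), beside 5.74% of all genes called higher and 1.19% lower. Of the 22, 8, among them Epcam and Spint1, stood above every uninjected liver in all 3 livers of day 21, beside 27.6% of all genes. The log2 difference of Epcam was 1.21 (adjusted p = 0.053), while Cldn3, Crb3, Llgl2, Esrp2 and Cdh1 had negative estimates that did not pass. In the late livers 17 of the 22 were higher, beside 34.7% of all genes. In 122ko 16 were higher, beside 19.6%, and 19 without replicate C, when the share of all genes called higher was 31.8%.

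Mesenchymal genes were higher in the same livers. At day 45, 11 of 13 rose and none fell, with a median of 1.34, beside 26.9% of all genes called higher. The largest differences belonged to the collagens Col3a1 (3.12, SE 0.42, adjusted p = 0.00068), Col1a1 (2.73, SE 0.52, adjusted p = 0.0029) and Col1a2 (2.63, SE 0.43, adjusted p = 0.0015), followed by the matrix protein Sparc (2.14, SE 0.31, adjusted p = 0.00096). Vim, an intermediate filament of mesenchymal cells, had 14.1, 6.80 and 11.6 FPKM at day 0 and 28.5, 50.4 and 44.0 FPKM at day 45 (1.84, SE 0.35, adjusted p = 0.0030). Vim and Col3a1 were the 2 that had already risen at day 21, beside 5.74% of all genes called higher. The list gave 11 of 13 higher in the late livers, beside 34.7% of all genes, and 9 of 13 in 122ko, beside 19.6%. Without 122ko replicate C it gave 10 higher and 1 lower, when 31.8% of all genes were called higher and 25.9% lower. Epithelial and mesenchymal genes thus rose side by side in whole liver.

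The other transcription factors of this programme and the cofactors of Zeb mostly did not pass at day 45, when 3 of 8 rose and none fell (median 0.38), beside 26.9% of all genes called higher. Snai1, a repressor of E-cadherin, had 0.274, 0.315 and 0.281 FPKM at day 0 and 0.970, 2.42 and 1.16 FPKM at day 45 (0.92, SE 0.24, adjusted p = 0.012). The Zeb corepressors Ctbp2 and Ctbp1 rose by 1.07 (SE 0.16, adjusted p = 0.00093) and 0.98 (SE 0.17, adjusted p = 0.0021). Snai2 had 2.98, 2.38 and 2.69 FPKM at day 0 and 3.39, 4.87 and 2.54 FPKM at day 45, which overlapped (0.29, adjusted p = 0.34). In the late livers 7 of the 8 were higher, beside 34.7% of all genes. With each library centred on its median 3 were higher, beside 15.9% of all genes.

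Reported targets of the family other than Zeb1 and Zeb2 did not stand apart from the other genes at day 45. Of 16 measured, 5 rose at day 45 and none fell (median 0.34), a share near the 26.9% of all genes called higher, with 400 of 14104 called lower. Msn, a linker of membrane and actin, had 7.62, 9.67 and 14.4 FPKM at day 0 and 29.8, 40.7 and 32.1 FPKM at day 45 (1.64, SE 0.20, adjusted p = 0.00052). The transcription factor Ets1 rose by 1.04 (adjusted p = 0.010), the Notch ligand Jag1 by 0.93 (adjusted p = 0.041) and the formin Fhod1 by 0.68 (adjusted p = 0.017). In the late livers 6 of the 16 rose and none fell, beside 34.7% of all genes called higher. In 122ko 2 rose and 1 fell, with a median of -0.19, beside 19.6% of all genes called higher and 12% lower. Without 122ko replicate C the count was 2 higher and 6 lower, when 31.8% of all genes were called higher and 25.9% lower. None of 5 reported miR-205 targets was called at day 21, at day 45 or in the late livers (median -0.02 at day 45), and in 122ko Vegfa alone was called, at -0.73 (adjusted p = 0.011). Without replicate C 4 of the 5 were lower, beside the same 25.9% of all genes.

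The scale matters for these counts. At day 45, 3800 genes were called higher and 400 lower, and centring each library on its median moved this to 1848 (13.1% of all genes) and 1024. After that centring the epithelial list had 15 higher and 1 lower, the mesenchymal list 9 higher, the transcription factors and cofactors 3 higher and the miR-200 targets 2 higher. Without day 45 replicate B, the liver with the highest Epcam, these lists had 14, 9, 2 and 1 higher, when the share of all genes called higher was 15.5%.

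At day 45 some markers of every cell type listed but the hepatocyte were called higher. At day 21 and in 122ko the marker lists did not all follow the epithelial list. Of 9 bile duct markers 7 were higher at day 45, when 26.9% of all genes were called higher, and their summed level was 50.6 to 65.8 FPKM at day 0, 144 to 209 FPKM at day 21, 415 to 1354 FPKM at day 45, 2942 and 1940.0 FPKM at days 100 and 200, and 561 to 813 FPKM in 122ko. Most of this sum was Spp1, a secreted matrix protein. The other 8 markers summed to 9.26 to 11.2 FPKM at day 0, 11.8 to 14.7 FPKM at day 21, 32.0 to 95.6 FPKM at day 45, 76.1 and 85.5 FPKM at days 100 and 200, and 28.4 to 81.4 FPKM in 122ko. All 6 markers of stellate cells and fibroblasts were higher at day 45 (131 to 178 FPKM at day 0 and 314 to 425 FPKM at day 45), and Col1a1 stands on both this and the mesenchymal list. At day 21, when no epithelial gene was called higher, 6 of 6 lymphocyte markers (median 1.41), 2 of 5 endothelial markers (median 0.79), 1 of 5 macrophage markers and 1 of 9 bile duct markers, Spp1 (1.78, adjusted p = 0.014), were called higher, beside 5.74% of all genes. Endothelial markers, 2 of 5 higher at day 45, summed to 21.7 to 50.3 FPKM at day 0, 64.4 to 77.2 FPKM at day 45 and 28.8 to 37.7 FPKM in 122ko. Kdr stands on both this list and the list of reported miR-200 targets. All 5 macrophage markers and all 6 lymphocyte markers were higher at day 45, with sums of 93.7 to 157 and 4.10 to 9.60 FPKM at day 0 and of 269 to 288 and 22.2 to 29.7 FPKM at day 45. Of the 6 hepatocyte markers, Alb and Serpina1a are listed at 0 in every liver of days 0, 21 and 45. None of the other 4 was called at day 45, and their sum was 25355 to 27968 FPKM at day 0 and 19263 to 25221 FPKM at day 45. Zeb1 and Zeb2 are known from several of these cell types, and the part of cell make-up in the values above was not tested.

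Genes within 20000 bases of the 2 clusters moved in different directions at day 45. Near the chromosome 6 cluster, Emg1 fell by 0.66 on the log2(FPKM + 1) scale (adjusted p = 0.0095), Lpcat3 rose by 1.18 (adjusted p = 0.00059), Ptpn6 rose by 0.85 (adjusted p = 0.0057) and Phb2 had -0.21 (adjusted p = 0.35). Ttll10, which overlaps the chromosome 4 cluster on the same strand, had 0.043, 0.017 and 0.059 FPKM at day 0 and 0.183, 0.647 and 0.388 FPKM at day 45. These groups did not overlap, as for 44.8% of all genes. The log2 difference was 0.42 (SE 0.11, adjusted p = 0.015), and it was 0.59 in the late livers (adjusted p = 0.0031) and 0.40 in 122ko (adjusted p = 0.020). At day 21 it was 0.09 (adjusted p = 0.75). These genes were taken by position, and the level of Ttll10 is low. The hairpin entries of the 6 microRNAs are listed at 0 in RNA-seq.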

How the data were processed

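The authors trimmed small RNA reads, aligned them to mouse microRNAs with Bowtie 0.12.7 allowing mismatches, and deposited RPM with 1 added to each value. Here the 1 was removed, the step between low values was taken as 1 read, and levels were rescaled to reads other than miR-122. For RNA-seq the authors aligned to mm9 with TopHat and deposited FPKM from Cufflinks 2.2.1 with quartile normalization. The 22308 rows gave 21888 symbols, and rows of 224 symbols with more than 1 row were summed. limma 3.58.1 (R 4.3.3) was run on log2(value + 1) over all features with a mean of at least 10 RPM or 0.1 FPKM. Separate fits held the floxed livers with replicates (with days 100 and 200), days 1 to 36 with day as a number, development with LKO, and RNA-seq. Calls required a Benjamini-Hochberg adjusted p under 0.05. Labels do not say that mice were littermates or shared a batch, and day 0 is shared between comparisons. Named context genes are a fixed set plus up to 4 of each list with the largest called log2 difference at day 45. The members and lists were chosen with earlier results of these data known. Alternatives were other scalings, pseudocounts, filters, a replicate block and leaving out each library. Scripts were tested on simulated data. Samples with the same replicate letter did not deviate together, so the letters were not taken as pairs. Python 3.11.15 was used for the remaining steps.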

Additional observations from a re-analysis of the deposited data

Results flagged for a closer look

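The differences between groups below passed a test of the difference itself, in the limma fit over the 14 RNA-seq livers. Zeb2 was lower in 122ko than at day 45, with a log2 difference of -1.40 (adjusted p = 0.032), where 122ko replicates A and B had 0.38 and 0.48 FPKM and replicate C had 2.851 FPKM, below each of the 3 livers of day 45. Ctbp2, a corepressor of the Zeb proteins, was also lower in 122ko than at day 45 (-0.76, adjusted p = 0.015), with 1.103 to 1.22 FPKM against 2.15 to 3.895 FPKM. Of the 16 reported miR-200 targets measured, 4 were lower in 122ko than at day 45 and none was higher, with a median of -0.72 beside -0.19 over all genes tested. Msn (-1.07, adjusted p = 0.010) and Ets1 (-0.94, adjusted p = 0.041) were among them. Ctbp2, Msn and Ets1 were named because they were among the largest called differences of their lists at day 45. A contrast with the same day 45 livers therefore favours a lower value in 122ko. Epcam was higher at day 45 than at day 21, with a log2 difference of 2.13 (adjusted p = 0.042), where the 3 livers of day 21 had 3.254, 3.713 and 4.648 FPKM. Leaving out 1 of the 6 livers of each comparison in turn, an alternative chosen after seeing the data, kept the call in 1 of 6 fits for Zeb2 and for Ets1 (without 122ko replicate C) and for Epcam (without day 45 replicate A). It kept the call in 4 of 6 for Ctbp2 (lost without 122ko replicate A or B) and in 5 of 6 for Msn (lost without day 45 replicate B). Between 122ko and day 45, endothelial markers were also lower (4 of 5, median -1.06), as were 2 of 6 stellate and 2 of 5 macrophage markers. Kdr stands on both the endothelial list and the list of reported miR-200 targets, so these counts are not separate. The differences come from contrasts in which 1251 genes were lower in 122ko than at day 45 (8.87% of those tested) and 17 were higher at day 45 than at day 21 (0.121%). Without 122ko replicate C, 33.7% were lower in 122ko than at day 45. Without day 45 replicate A, 2.97% were higher at day 45 than at day 21.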

How the results depend on the processing

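Planned edgeR and DESeq2 fits were not run. The deposited values are RPM with 1 added, and the reads recovered from their steps were not used as input to these tests. Replicate letters are shared between groups, but samples with the same letter did not deviate together (median correlation 0.092 in the floxed, 0.079 in the development and LKO, and 0.012 in the RNA-seq livers). With the letter as a replicate block, 4 members in place of 2 passed between E14 and E18, and no other count of called members changed by over 1.5 times. Scaled to all reads with miR-122, 5 members passed in the trend over days 1 to 36 and 1 between days 7 and 21. With median centring 1 member in place of 3 passed between day 21 and the late livers, and with a pseudocount of 10 RPM 3 passed between E14 and E18. With unlisted reads in the total, an alternative chosen after seeing the data, 1 passed between E14 and E18, and the counts between E14 and P270 and between the LKO groups did not change. Leaving out 1 library gave 0 to 4 called members in the trend, 0 to 0 between days 7 and 21, 0 to 1 between day 21 and the late livers, 6 to 6 between E14 and P270, 0 to 1 between E14 and E18, 0 to 0 between the LKO groups, 6 to 6 without overlap at day 45, 0 to 0 for Zeb1 and Zeb2 at day 21, day 45 and in the late livers, and 0 to 2 in 122ko. Signs turned for miR-200c between days 7 and 21 (0.09 to -0.052 with median centring, -0.09 without day 21 replicate C and -0.67 to 0.76 without 1 library, the lowest without day 7 replicate C) and for miR-205 between the LKO groups (0.30 to -0.16 without LKO_flox replicate B, and up to 0.77 without another library). For Zeb1 they turned at day 21 (-0.10 without day 0 replicate A and -0.03 without day 21 replicate A, and up to 0.26 without another library), at day 45 (-0.065 with median centring and -0.0021 without day 0 replicate A, and up to 0.35 without another library) and in the late livers (-0.060 with median centring). The cause was not tested. Of the log2 differences recomputed, 736 kept their sign and their side of the threshold, 20 passed that had not, 51 no longer passed and 9 turned sign. Depth limits miR-205 and miR-141, which rest on few reads in most adult livers, and the FPKM hold no fragment numbers, so the depth behind Zeb1 and Zeb2 is unknown.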
